A study of Mus musculus with 26 samples.

Results

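The 40 genes described here make, break down or respond to cyclic AMP (cAMP) and cyclic GMP (cGMP) in cells of the mouse nucleus accumbens. They were taken by symbol and comprised 8 adenylyl cyclases (without Adcy4 and Adcy5), 21 genes with a phosphodiesterase symbol (without Pde10a), 6 subunits of the cAMP-dependent kinase PKA, 3 subunits of the soluble guanylyl cyclase and 2 cGMP-dependent kinases. Of the 31735 genes listed for all 26 libraries, 44 symbols matched, and 40 of them had 10 or more counts in at least 3 libraries. Gucy1b2, Pde6a, Pde6g and Pde6h did not. The rule used names and a minimum count, and no difference between groups, but it was set with earlier results of these data known.

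Adenylyl cyclases convert ATP to cAMP, soluble guanylyl cyclase converts GTP to cGMP when nitric oxide binds its haem, and phosphodiesterases (PDEs) hydrolyse the products with differing preference for each. cAMP releases the catalytic subunits of PKA from its regulatory subunits, and cGMP activates the kinases encoded by Prkg1 and Prkg2. In striatal medium spiny neurons that express the dopamine D2 receptor, this receptor couples to inhibitory G proteins that lower cAMP, while the adenosine receptor encoded by Adora2a in the same cells couples to the stimulatory protein Golf and raises it.

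The study used translating ribosome affinity purification (TRAP), in which RNA is recovered with an antibody against EGFP from polysomes that carry EGFP-tagged ribosomal protein L10a. All mice were adults of the Drd2-TRAP line CP101, of a FVB/N-Swiss Webster background crossed for at least 9 generations to C57BL/6. The tag is driven by regulatory sequence of Drd2, so cholinergic interneurons, which also express that gene, may carry it. Animals had self-administered saline (n = 3 immunopurified libraries) or cocaine, the latter split into a nonescalating (n = 5) and an escalating (n = 2) group, in a study of long daily access through an intravenous line. Further libraries came from animals in withdrawal after saline (n = 6) or after nonescalating cocaine (n = 8), and 2 input libraries of total RNA came from 1 saline and 1 nonescalating sample. The withdrawal libraries fall into 2 sets by library number (3 and 3 of saline, 3 and 5 of cocaine), and all other libraries belong to set 1. The labels give no withdrawal time, dose or exact age, and nothing in them says that libraries of a group came from separate animals, so the tests measure the spread between libraries. The descriptions of the 5 nonescalating libraries carry the word withdrawal and their titles do not; the titles were used.

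The immunopurified libraries had 1.54 to 17.5 M counts in genes, with a median of 3.27 M, and the inputs 4.70 and 37.5 M. At these depths 3 counts correspond to 0.171 to 1.95 CPM (counts scaled to the same library total), so low members rest on few reads. Levels are CPM with TMM scaling over all 26 libraries. As a check of the label, Drd2 was above both inputs (279 and 392 CPM) in 23 of 24 immunopurified libraries. The exception was nonescalating replicate 4 at 243 CPM, which also had the lowest summed level of 8 D2 neuron markers (1336 CPM, against 1462 and 2001 in the inputs), and values without it are given below. Vascular markers were high in the immunopurified RNA: 7 pericyte and smooth muscle markers summed to 124 to 4845 CPM against 107 and 148 in the inputs, and they ran from 618 to 4845 in set 1 and from 124 to 612 in set 2.

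Ranked by mean CPM per kilobase of exon over the 24 immunopurified libraries, the genes of this pathway spanned from 113 for Gucy1a3 to 0.119 for Pde11a. Gucy1a3 and Gucy1b3, now named Gucy1a1 and Gucy1b1, encode the alpha-1 and beta-1 subunits that form the common soluble guanylyl cyclase. They lie next to each other on mouse chromosome 3 (GRCm38, the build called mm10), at 82092427 to 82145789 and at 82032006 to 82074689, both on the minus strand. Their levels were 113 and 49.4 CPM per kilobase. The excluded neighbours of the family gave a scale: Pde10a, the phosphodiesterase typical of medium spiny neurons, was at 158 and Adcy5, the main striatal adenylyl cyclase, at 55.1 CPM per kilobase.

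DNA just before a RefSeq transcript start is shown for 4 members, for the reasons that follow. Gucy1a3 and Prkacb moved with the medium spiny neuron markers across libraries in both library sets. Gucy1b3 did so over all 24 libraries but not within set 2 (r = -0.01). Other members with close relations (Pde1b, Pde4b and Pde7b, values below) are not shown. Pde1a, with the far lower Pde11a, was below input in all 24 immunopurified libraries (values, and the limit of such counts, below). Each run is the longest stretch without annotated exon in the 250 bases before a RefSeq transcript start (GRCm38.p6), written 5′ to 3′ on the gene's strand. It was taken from 2 windows of Gucy1a3, 1 of Gucy1b3, 3 of Prkacb and 4 of Pde1a. Only the Gucy1b3 run lies before the annotated gene. The other runs lie inside the genes, which extend to 82145789 (Gucy1a3), 146812990 (Prkacb) and 80129458 (Pde1a). Capitals mark TGACG or its reverse complement CGTCA, the 5-base core of the cAMP response element bound by CREB.
Gucy1a3 (chr3:82145074-82145262, minus strand): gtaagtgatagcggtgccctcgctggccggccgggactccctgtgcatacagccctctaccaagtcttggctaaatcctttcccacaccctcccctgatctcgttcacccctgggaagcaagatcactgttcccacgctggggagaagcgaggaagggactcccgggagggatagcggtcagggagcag
Gucy1b3 (chr3:82074712-82074961, minus strand): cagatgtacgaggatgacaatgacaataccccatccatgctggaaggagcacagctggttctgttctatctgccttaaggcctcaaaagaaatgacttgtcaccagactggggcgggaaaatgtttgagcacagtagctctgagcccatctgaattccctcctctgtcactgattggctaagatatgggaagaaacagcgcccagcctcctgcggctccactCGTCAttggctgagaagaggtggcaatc
Prkacb (chr3:146781417-146781666, minus strand): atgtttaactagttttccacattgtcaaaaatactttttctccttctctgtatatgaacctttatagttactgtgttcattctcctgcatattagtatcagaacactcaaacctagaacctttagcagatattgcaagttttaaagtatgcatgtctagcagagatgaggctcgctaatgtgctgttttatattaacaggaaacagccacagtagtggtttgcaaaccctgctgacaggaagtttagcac
Pde1a (chr2:79908434-79908649, minus strand): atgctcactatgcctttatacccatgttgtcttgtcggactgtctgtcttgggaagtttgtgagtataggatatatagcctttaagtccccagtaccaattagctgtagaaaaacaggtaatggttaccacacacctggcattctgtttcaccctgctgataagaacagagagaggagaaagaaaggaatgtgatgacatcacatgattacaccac
The core occurs in the Gucy1b3 run, starting 28 bases before the transcript start, and in none of the other 3 runs. Those 3 runs do not stand for the other transcript starts of their genes. RefSeq promoter windows of 300 bases were at hand for 32 of the 40 members (71 windows). The core, searched on both strands, was in 17 of these 71 windows (23.9%) and in 20.8% of all 32851 windows. The palindrome TGACGTCA, which contains the core on each strand, was in 2 windows of the members, both of Prkar1a (2.82%), and in 1.79% of all windows. The members' shares were near those of all windows.

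The synthesising enzymes differed widely in level. Among cyclases that make cAMP, Adcy9, a widely expressed isoform, had the highest level at 30.7 CPM per kilobase, followed by the calcium-stimulated Adcy1 at 11.9, with an SD of 60.6 around a mean of 149 CPM (n = 24 libraries), and the calcium-inhibited Adcy6 at 7.88. Adcy2, Adcy3, Adcy7, Adcy8 and the soluble Adcy10 ran from 4.53 down to 0.294, and Adcy10 had no count in 10 of the 24 libraries. All 3 soluble guanylyl cyclase subunits had counts in every library, with Gucy1a2, the alpha-2 subunit, at 33.6 CPM per kilobase. Adcy1 was at 107, 157 and 273 CPM in saline, 123, 60.2, 111, 140.1 and 186 in nonescalating and 146 and 210.4 in escalating libraries, and its medians after withdrawal were 150.3 (saline, range 74.5 to 185) and 146 CPM (cocaine, range 60.8 to 306). Gucy1a2 was at 180.1, 148 and 174 CPM in saline, 232, 161, 126, 146 and 161 in nonescalating and 262 and 147 in escalating libraries, and its medians after withdrawal were 207 (saline, range 166 to 333) and 271 CPM (cocaine, range 134 to 507). Neither gene separated any of these groups. Gucy1a3 was at 525, 1315 and 558 CPM in the saline libraries, at 785, 645, 727, 157 and 594 in the nonescalating and at 740.1 and 1031 in the escalating libraries. After withdrawal its lowest, median and highest values were 393, 948 and 1105 CPM in the saline group and 426, 844 and 1201 in the cocaine group. All groups overlapped, and the value of 157 belonged to the nonescalating library with little Drd2.

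Among the enzymes that break cyclic nucleotides down, Pde2a, a cGMP-stimulated PDE of both nucleotides, led at 98.9 CPM per kilobase. Pde1b, the calcium and calmodulin dependent PDE abundant in striatum, followed at 70.6, the cAMP-specific Pde4b at 57.0, the cAMP-specific Pde8b and Pde7b at 33.7 and 26.5, and Pde1a at 22.9. Pde2a was the steadiest of these, at 736, 829.8 and 535 CPM in saline, 716, 606, 703, 272 and 565 in nonescalating and 706 and 741 in escalating libraries. Pde4b ranged more, from 309 to 976 CPM in saline, from 110.2 to 899 in nonescalating and from 523 to 1107 in escalating libraries. After withdrawal Pde4b had medians of 703 (saline, range 373 to 827) and 594 CPM (cocaine, range 320.3 to 1053). Within each group the highest Pde4b library therefore exceeded the lowest by more than the groups differed. Pde4dip and Pde6d carry PDE symbols but encode myomegalin, a PDE4-interacting scaffold, and a prenyl-binding protein; they were at 16.5 and 8.03 CPM per kilobase.

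The low end held PDEs best known from other tissues. Pde6b and Pde6c, subunits of the rod and cone photoreceptor enzymes, had no count in 18 and 17 of the 24 immunopurified libraries, and Pde11a, a PDE of both nucleotides, had none in 12. Pde5a, the cGMP-specific PDE of vascular smooth muscle, was at 3.48 CPM per kilobase and had counts in every library. Pde3a and Pde3b, the cGMP-inhibited PDEs, were at 1.14 and 0.898, and Pde9a, a cGMP-specific PDE, at 2.28. The remaining members of the class, Pde1c, Pde4a, Pde4c, Pde4d, Pde7a and Pde8a, lay between 1.88 and 15.03 CPM per kilobase.

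All 6 PKA subunits were among the 16 members with the highest levels per kilobase. The type I regulatory subunit Prkar1a was at 83.7, the catalytic subunits Prkaca and Prkacb at 78.5 and 63.9, and Prkar1b, Prkar2b and Prkar2a at 46.4, 28.4 and 17.7 CPM per kilobase. Prkacb was at 353, 679 and 407 CPM in saline, 497, 416, 653, 175 and 311 in nonescalating and 710.1 and 689.5 in escalating libraries. Its medians after withdrawal were 699 CPM (saline, range 261 to 827) and 587 (cocaine, range 390.2 to 739). Prkar1a was at 239.9, 574 and 224 CPM in saline, 295, 350.1, 533, 137 and 222 in nonescalating and 210.2 and 388 in escalating libraries, with medians of 369 (saline, range 220.5 to 504) and 383 CPM (cocaine, range 274 to 643) after withdrawal. Both subunits were lowest in nonescalating replicate 4, and the groups overlapped except that both escalating values of Prkacb exceeded every saline and nonescalating value. Such a separation of the escalating libraries held for 7.66% of all genes against saline and for 5% against nonescalating. The cGMP kinases were low, with Prkg1 at 5.30 and Prkg2 at 1.42 CPM per kilobase. Prkg1 had a mean of 57.6 ± 28.8 CPM (SD, n = 24 libraries) with a range from 11.6 to 121. It was at 99.9, 103 and 34.3 CPM in saline, 50.3, 99.0, 11.6, 80.2 and 55.2 in nonescalating and 63.8 and 37.6 in escalating libraries, with medians of 46.5 (saline, range 18.3 to 121) and 48.1 CPM (cocaine, range 33.1 to 100.4) after withdrawal.

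**Figure D1:**
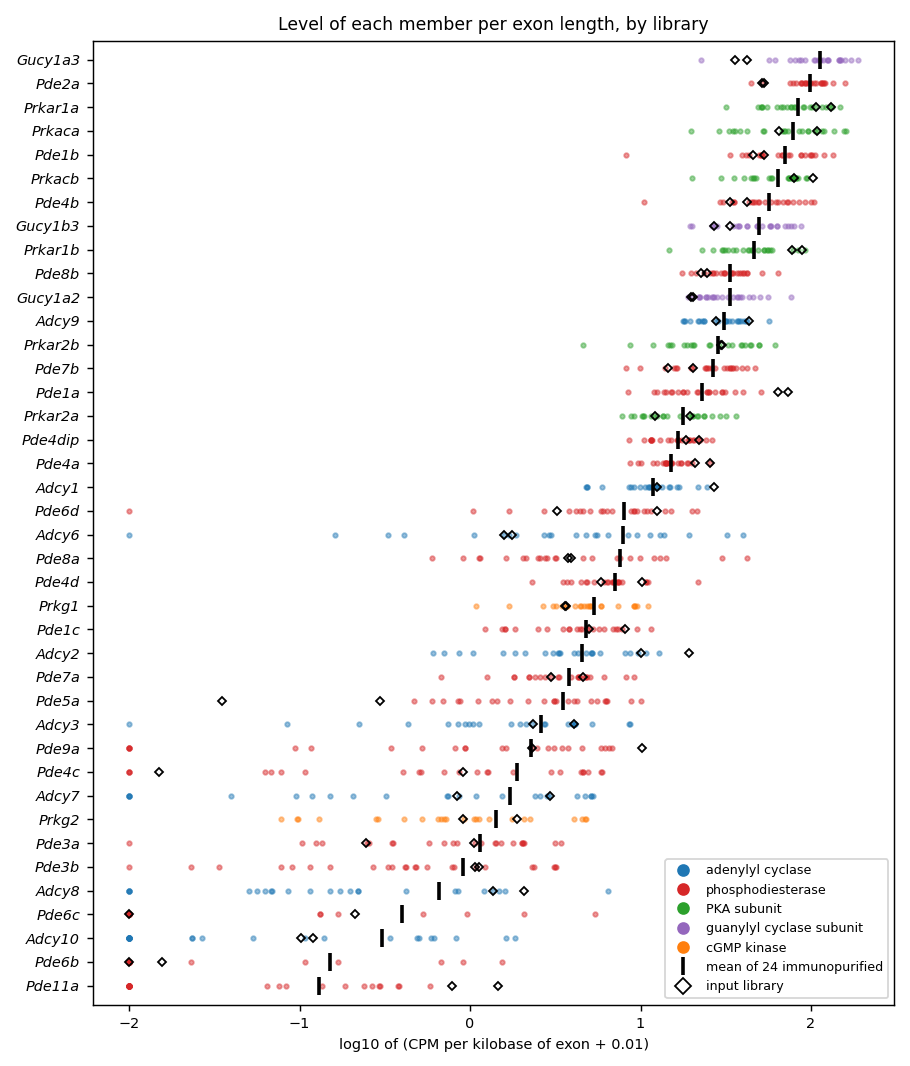
Level of each of the 40 members as log10 of CPM per kilobase of exon plus 0.01, with 1 point per immunopurified library coloured by family, a bar at the mean of 24 libraries and open diamonds for the 2 inputs; values at 0 sit at -2. Gucy1a3, Pde2a, Prkar1a and Prkaca lie at the top, Pde11a and the photoreceptor PDEs at the bottom, and the diamonds of Pde5a lie left of all its points while those of Pde1a lie right of all its points.

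Immunopurified RNA was compared with input to ask which members are over- or under-represented on the tagged ribosomes. No member passed: 0 of 38 tested members had an adjusted p at or below 0.05 (edgeR quasi-likelihood test, Benjamini-Hochberg over 14929 genes), against 0.255% of all genes, and every gene that passed was higher in immunopurified RNA. Pde6b and Pde6c had too few counts to be tested. At an unadjusted p under 0.05 there were 8 members of 38, against 8.27% of all genes, and 17 of 38 log2 fold changes were above 0 (median -0.21, all genes 0.07). DESeq2 called 3 members (Adcy6, Pde1a and Pde5a) and limma voom 7 (Adcy2, Pde11a, Pde1a, Pde5a, Prkacb, Prkar1a and Prkar1b). Of all 14929 genes, DESeq2 called 757 and limma voom 1090. The fit held the 8 immunopurified libraries without withdrawal (3 saline, 5 nonescalating) and the 2 inputs, so it had 1 input per agent. In bulk RNA of this kind a lower level cannot be told apart as fewer cells of a type or less RNA per cell.

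Pde5a had the smallest p of all members. Its levels were 99.2, 30.3 and 61.3 CPM in saline and 8.22, 54.4, 4.51, 60.3 and 41.5 CPM in nonescalating libraries, against 2.81 and 0.248 CPM in the inputs (14 and 9 counts). All 8 immunopurified libraries were above both inputs, which held for 3.26% of all genes in this direction, as were all 24 once escalating and withdrawal libraries were counted. For counts over 24 libraries, here and below, the share of all genes was not computed. Both inputs are of set 1 and without withdrawal, so the added libraries are not matched to them. The log2 fold change was 5.54 (SE 1.35, edgeR unadjusted p = 0.000767, adjusted p = 0.0859). It passed with DESeq2 (adjusted p = 4.56e-07), with limma voom (adjusted p = 0.0109), with all 24 immunopurified libraries (adjusted p = 0.0488), with no filter on low counts (0.0406) and without nonescalating replicate 3 (0.0385) or saline replicate 3 (0.0333), and over all alternatives the adjusted p ran from 4.56e-07 to 1. Without nonescalating replicate 4, the library with little Drd2, the log2 fold change was 5.43 (adjusted p = 0.0952). It was 4.48 without the nonescalating input and 6.97 without the saline input. Pericyte and smooth muscle markers moved with it: 7 of 7 had a mean above both inputs, 5 of 7 were above both inputs in all 8 libraries, and their sum was 618 to 4845 CPM against 107 to 148 in the inputs. Of these markers Kcnj8, Acta2 and Tagln were at 0 in at least 1 immunopurified library. Their part in the Pde5a difference was not tested.

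Adcy6 came next among members higher in immunopurified RNA. It was at 271, 2.71 and 64.4 CPM in saline and 93.1, 76.9, 32.2, 43.8 and 28.3 in nonescalating libraries, against 10.6 and 11.8 in the inputs. Saline replicate 3 was below both inputs and the other 7 libraries were above them. The log2 fold change was 2.73 (SE 1.13, edgeR adjusted p = 0.480, and 0.0426 with DESeq2), and 1.96 without saline replicate 1, the library at 271. The excluded cyclase Adcy4, an isoform found in endothelium, passed the same test (log2 fold change 7.06, SE 1.12, edgeR adjusted p = 0.0172). It had 1.60 and 0.414 CPM in the inputs and a mean of 119 ± 77.1 CPM (SD, n = 8 libraries), and the 7 endothelial markers summed to 687 to 3424 CPM in these libraries against 81.0 and 220.3 in the inputs. Of these markers 6 of 7 were above both inputs in all 8 libraries and only Cldn5 was at 0 in a library. Their part was not tested.

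Of the abundant members, Gucy1a3 and Pde2a were the furthest above input. Against 295 and 249 CPM of Gucy1a3 in the inputs, 7 of 8 immunopurified libraries were higher, with nonescalating replicate 4 lower (log2 fold change 1.34, SE 0.58, edgeR adjusted p = 0.519). Pde2a behaved alike, with inputs at 317 and 327 CPM, 7 of 8 libraries higher and the same library lower (log2 fold change 0.98, SE 0.45, edgeR adjusted p = 0.575). Over all 24 immunopurified libraries, 23 of Gucy1a3 and 22 of Pde2a exceeded both inputs. Without nonescalating replicate 4 the log2 fold changes were 1.47 and 1.08. Gucy1b3 and Gucy1a2 also had positive fold changes, so that 3 of 3 guanylyl cyclase subunits lay above 0 (median 0.60). Pde3a was the fifth by p in this direction (log2 fold change 1.57, SE 1.15, edgeR adjusted p = 0.886), with levels from 1.18 to 43.5 CPM around inputs of 3.01 and 13.3, and the value was 0.72 without the saline input.

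Below input, Pde1a, a calcium and calmodulin dependent PDE, stood first. It was at 165, 107 and 113 CPM in saline and 179.8, 99.4, 216, 51.0 and 90.4 in nonescalating libraries, against 442 and 385 in the inputs. None of the 8 libraries reached an input, which held for 4.27% of all genes in this direction. Nor did any of the 24, for which that share was not computed. The log2 fold change was -1.67 (SE 0.46, edgeR unadjusted p = 0.00204, adjusted p = 0.134). It passed with limma voom (adjusted p = 0.00141), with all 24 immunopurified libraries (0.0134), with the 16 of set 1 (0.0192) and with DESeq2 (0.0425), and was -1.57 without nonescalating replicate 4 (adjusted p = 0.113). Its close relative Pde1b differed from it in place: 3 of 8 libraries were above both inputs and 4 of 8 below (log2 fold change 0.23, SE 0.64, edgeR adjusted p = 0.998).

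PKA subunits lay mostly on the lower side, with 5 of 6 below 0 and a median log2 fold change of -0.57, against 0.07 for all genes. Prkacb was below both inputs (696 and 906 CPM) in all 8 libraries and in 18 of 24 (log2 fold change -0.86, SE 0.44, edgeR adjusted p = 0.664). Prkar1b, the neuronal type I regulatory subunit, was below its inputs of 293 and 339.6 CPM in 7 of 8 libraries and inside their range in saline replicate 3 at 299.9 (log2 fold change -0.98, SE 0.45, edgeR adjusted p = 0.571). Both passed with limma voom, as did Prkar1a. Adcy2, an isoform stimulated by protein kinase C and G protein beta-gamma subunits, was at 13.7, 20.2 and 21.5 CPM in saline and 40.6, 4.35, 17.1, 36.7 and 14.2 in nonescalating libraries. All 8 lay below its inputs of 42.1 and 81.1 (log2 fold change -1.54, SE 0.71, edgeR adjusted p = 0.578, and 0.0298 with limma voom). Adcy8, another calcium-stimulated isoform, had 11.03 and 16.9 CPM in the inputs and was lower than both in 7 of 8 libraries (log2 fold change -3.17, SE 1.58, edgeR adjusted p = 0.643). The value was -1.28 without the saline input and -4.38 without the nonescalating input. Pde11a had no count in 6 of 8 libraries and 8 and 4 counts in the other two, against 20 and 274 counts in the inputs (edgeR adjusted p = 0.480, and 0.0309 with limma voom), and its log2 fold change of -5.53 was -2.96 without the saline input. Summed markers of D1 neurons were also lower in immunopurified RNA, at 68.2 to 149.5 CPM against 388 and 415, as were those of GABA interneurons, at 73.3 to 345 CPM against 446 and 732. Of these, 0 of 6 and 0 of 7 markers had a mean above both inputs, and Pdyn, Tac1, Isl1, Eya1, Npy, Pvalb, Kit and Th were at 0 in at least 1 immunopurified library. The part of these cells in the members' lower levels was not tested.

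**Figure D2:**
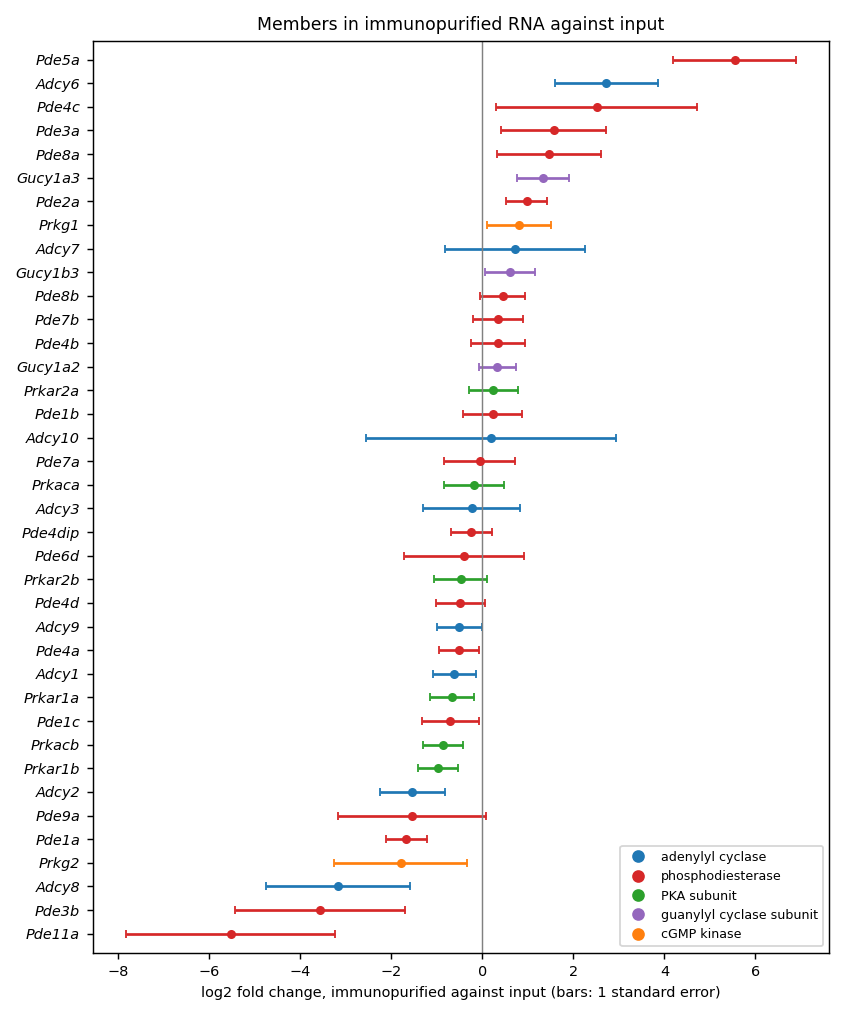
Log2 fold change of the 38 tested members between immunopurified and input RNA, ordered by size and coloured by family; bars show 1 standard error of the edgeR fit. Pde5a at 5.54 lies highest, Pde11a at -5.53 lowest, and none passed the adjusted threshold.

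Across the 24 immunopurified libraries, members differed in the cell markers they followed. Each member, as log2 of CPM plus 1, was correlated with the log2 summed CPM of 8 markers shared by medium spiny neurons (among them Pde10a and Adcy5, which are not members) and of the 7 pericyte and smooth muscle markers, 80 relations in all with 100000 permutations each. Both measures are shares of the same library total, so that a rise in some genes lowers the share of others. The permutations ran freely over all 24 libraries and were not kept within library set or group. Their p-values therefore do not separate a relation between libraries from a difference between sets. With the medium spiny neuron sum, 13 members had a positive and 4 a negative correlation with adjusted p under 0.05 by both Pearson's r and Spearman's rho, and 15 of these 17 kept their sign in both library sets. The count is to be read against all genes: with r and rho both past 0.5, there were 12 of 39 tested members on the positive and 4 on the negative side, against 7.64% and 7.96% of all 15854 genes. All genes include many of low level, and the shares were not matched for level. The relation was closest for Gucy1a3 (r = 0.93, rho = 0.86, permutation p = 1e-05 for each, the smallest 100000 permutations can give, adjusted p = 0.000133 and 0.0004). It was 0.83 without the 2 libraries farthest from the median sum, 0.95 in set 1 (n = 16) and 0.73 in set 2 (n = 8). Pde1b followed with r = 0.92 (rho = 0.87), Pde4b with 0.87 (rho = 0.75), Prkacb with 0.86 (rho = 0.68) and Pde7b with 0.84 (rho = 0.80), each with a permutation p of 1e-05 for r and an adjusted p of 0.000133. All 5 of these stayed above 0.73 without the 2 farthest libraries. The other positive members were Pde1c, Prkaca, Prkar1b, Prkar2b, Pde2a, Prkar1a, Gucy1b3 and Pde4dip. Without the 2 farthest libraries r was 0.36 for Pde2a, 0.40 for Gucy1b3, 0.41 for Prkar1a and 0.30 for Pde4dip, so these 4 relations rest in large part on those libraries. In set 2 it was -0.01 for Gucy1b3, 0.06 for Prkar1a and 0.11 for Prkar1b. Adcy9, the most abundant cyclase among the members, had r = 0.21 (rho = 0.00).

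With the pericyte and smooth muscle sum the direction turned. The positive members were Pde4c (r = 0.73, rho = 0.73), Adcy6 (0.72, rho = 0.79), Pde8a (0.70, rho = 0.70), Pde5a (0.65, rho = 0.68) and Adcy7 (0.50, rho = 0.51), with adjusted permutation p for r of 0.0008, 0.0008, 0.00109, 0.00299 and 0.0314. Pde5a had r = 0.64 in set 1 and 0.80 in set 2, and 0.63 without the 2 farthest libraries. Adcy6 had 0.82 and 0.59 in the sets and 0.72 without the 2 farthest. The relation of Pde5a, Adcy6, Pde4c and Pde8a to this sum was thus positive within each set, although the sum itself was lower in set 2. The 10 negative members included Prkar1a (r = -0.69, rho = -0.69), Prkar2b (r = -0.66, rho = -0.75) and Prkacb (r = -0.64, rho = -0.70), with adjusted permutation p for r of 0.00153, 0.00206 and 0.00262, and Pde7b, Pde1a, Pde4b, Gucy1b3, Gucy1a3, Pde6d and Pde7a. Of the 15 members, 14 kept their sign in both sets, the exception being Pde6d. With r and rho both past 0.5, there were 5 of 39 tested members on the positive and 9 on the negative side, against 11.7% and 6.55% of all genes. These relations describe libraries of different groups and do not separate groups from cell makeup.

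**Figure D3:**
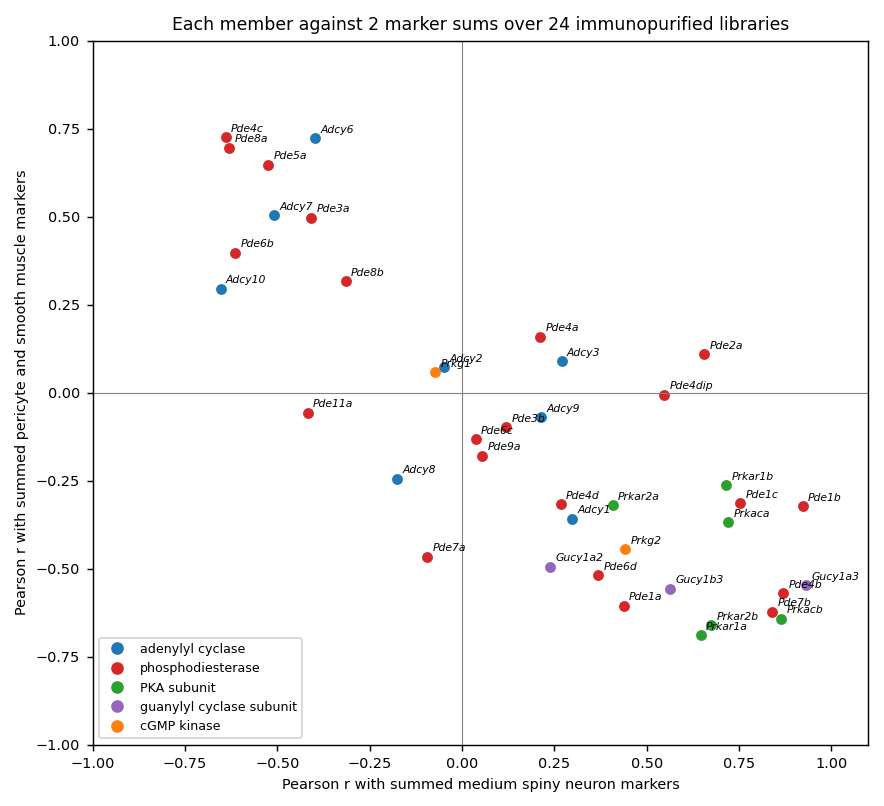
Pearson r of each of the 40 members with the summed medium spiny neuron markers (x axis) and with the summed pericyte and smooth muscle markers (y axis) over 24 immunopurified libraries, coloured by family. Gucy1a3 lies at the far right with 0.93 and below 0 on the y axis, and Pde4c, Adcy6, Pde8a and Pde5a lie at the upper left.

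Nonescalating cocaine was compared with saline in libraries without withdrawal. No member passed (0 of 39 tested, edgeR, adjusted over 15854 genes; all genes 0%), with Pde11a untested here and in the comparisons that follow. No member had groups that did not overlap (all genes 1.26% higher and 1.12% lower). At an unadjusted p under 0.05 there were 2 of 39 members, against 6.74% of all genes, and neither DESeq2 nor limma voom called a member. All 6 PKA subunits had a log2 fold change below 0 (median -0.31, all genes 0.01), and adenylyl cyclases had 6 of 8 above 0 (median 0.28). Nonescalating replicate 4, the library with little Drd2, was the lowest of its group for all 6 PKA subunits. It had 49.1 CPM of Prkaca, 175 of Prkacb, 137 of Prkar1a, 87.3 of Prkar1b, 49.5 of Prkar2a and 16.9 of Prkar2b. The directions of this family without that library are not given here. The member with the smallest p was Prkg2, the membrane-bound cGMP kinase. It was at 6.00, 21.7 and 2.76 CPM in saline and 0.470, 0.363, 0.645, 1.499 and 3.42 in nonescalating libraries (1 to 7 counts in the latter). All but nonescalating replicate 5 lay below the saline range (log2 fold change -3.08, SE 1.14, edgeR adjusted p = 0.719). Without saline replicate 3, the library at 21.7, the value was -1.81, and without nonescalating replicate 4 it was -3.17.

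Adcy9 was the cyclase with the smallest p in this comparison. It was at 95.0, 119 and 93.2 CPM in saline and 178, 123, 295, 102 and 149 in nonescalating libraries. The 3 saline libraries lay close together, and 4 of 5 cocaine libraries exceeded all of them (log2 fold change 0.69, SE 0.36, edgeR adjusted p = 0.738), and without nonescalating replicate 4 the value was 0.82. Pde3b was at 0.214, 0.118 and 0.613 CPM in saline (1, 1 and 2 counts) and at 11.04, 0, 1.29, 9.74 and 2.93 in nonescalating libraries. The cocaine libraries lay on both sides of the saline values, and 4 of 5 were above them (log2 fold change 4.01, SE 1.55, edgeR adjusted p = 0.719). Its direction turned (-1.91, adjusted p = 1) when the nonescalating libraries were taken as withdrawal libraries, as their descriptions have it, and set against the saline withdrawal libraries of set 1.

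After withdrawal, cocaine was again compared with saline, and again no member passed (0 of 39; all genes 0%, edgeR). No member separated the groups (all genes 0.0189% higher and 0.0126% lower). At an unadjusted p under 0.05 there were 2 of 39 members, against 3.49% of all genes, and no member was called by DESeq2 or limma voom. Adcy9 ran from 113 to 171 CPM with a median of 133 in saline (n = 6) and from 92.7 to 218 with a median of 198 in cocaine libraries (n = 8). Of the 8 cocaine libraries, 6 were above every saline library, replicate 1 of set 2 lay inside the saline range at 165 CPM and replicate 4 of set 2 below it. The log2 fold change was 0.44 (SE 0.26, edgeR adjusted p = 1), with 0.54 in set 1 and 0.44 in set 2. Adcy3, an isoform best known from olfactory neurons, ran from 10.9 to 54.2 CPM (median 20.3) in saline and from 0 to 25.7 (median 5.95) in cocaine libraries. The groups overlapped (log2 fold change -1.73, SE 0.79, edgeR adjusted p = 1), and the value was -0.52 in set 1 and -2.57 in set 2. Adcy7, an isoform found mainly in blood cells, ran from 0 to 7.21 CPM (median 1.52) in saline and from 0.731 to 34.2 (median 10.9) in cocaine libraries, with overlap (log2 fold change 2.30, SE 1.09, edgeR adjusted p = 1), and the value was 2.87 in set 1 and 1.86 in set 2 (3.37 without saline replicate 2 of set 2). Exons of Adcy3 overlap the protein-coding gene Cenpo on the other strand, and the labels do not say whether reads were counted by strand.

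Averaged over both times, the cocaine effect had 3 of 39 members at an unadjusted p under 0.05, against 6.8% of all genes, and 0 members that passed (all genes 0%). Adcy9 led with a mean log2 fold change of 0.57 (SE 0.22, edgeR unadjusted p = 0.0158, adjusted p = 0.670), which ran from 0.44 to 0.65 when single libraries were left out. Prkg2 followed at -1.70 (SE 0.70, edgeR adjusted p = 0.670) and Adcy8 at 2.78 (SE 1.31, edgeR adjusted p = 0.702), the latter with 2 to 4 counts in each saline library without withdrawal and 0 to 116 in those after it. Without replicate 5 of set 2 of the cocaine withdrawal group Adcy8 was at 2.07, and without saline replicate 3 Prkg2 was at -1.06. PKA subunits had 6 of 6 values below 0 (median -0.24), but this mean includes the contrast without withdrawal and is no repeat of it. After withdrawal alone, group means were higher in cocaine than in saline libraries for Prkaca (201 against 190 CPM), Prkar1a (417 against 363) and Prkar2a (112 against 102). They were lower for Prkacb (577 against 658), Prkar1b (183 against 194) and Prkar2b (112 against 134). These means are not adjusted for library set. The difference of the cocaine effects between withdrawal and none had 1 of 39 members at an unadjusted p under 0.05 (all genes 4.89%) and 0 that passed (all genes 0%). It was Pde3b with -5.20 (SE 1.84, edgeR adjusted p = 0.972), followed by Pde8a at -2.29 (SE 1.12) and Prkg2 at 2.74 (SE 1.40), both with an adjusted p of 1. Without saline replicate 1 the Pde8a value was -3.54, and without saline replicate 3 the Prkg2 value was 1.496. Cocaine effects at the 2 times were therefore not shown to differ for any member.

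**Figure D4:**
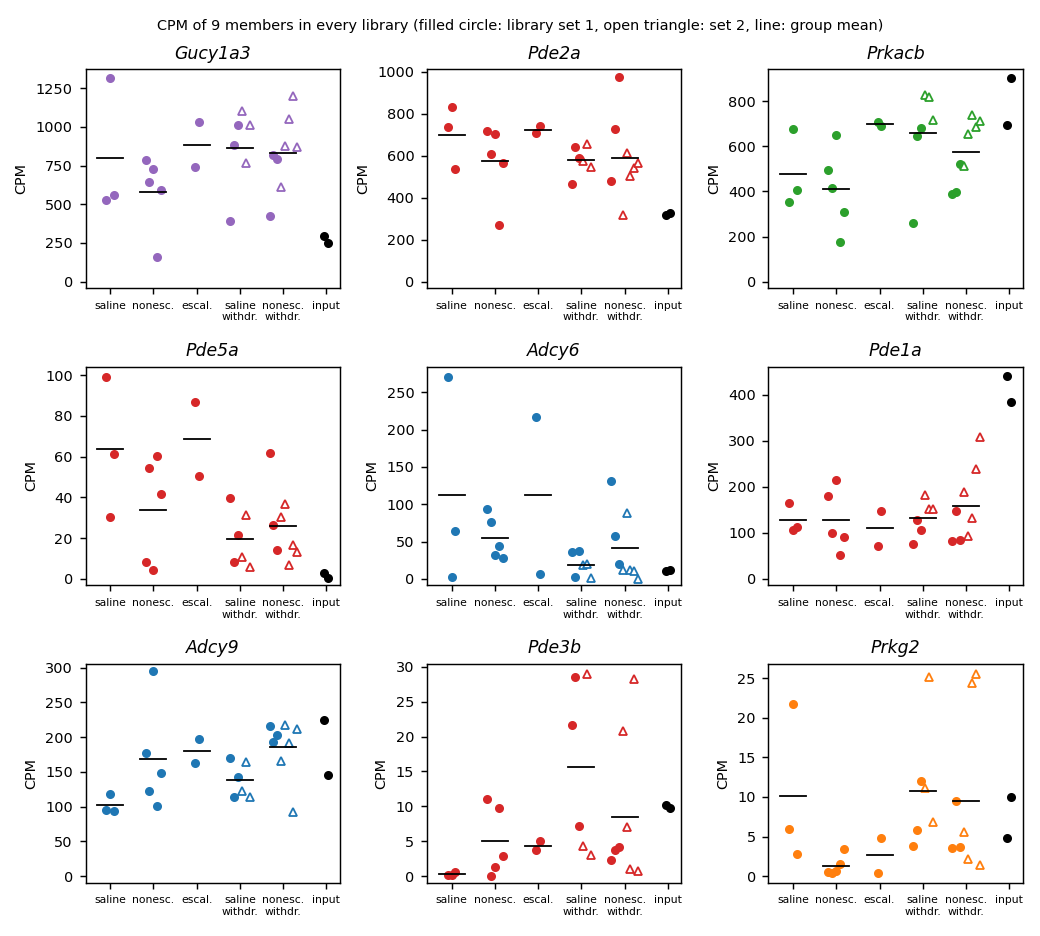
CPM of 9 members in every library by group, with filled circles for library set 1, open triangles for set 2 and a line at each mean of immunopurified libraries. Adcy9 is higher in 4 of 5 nonescalating libraries than in any saline library, Pde3b is near 0 in the 3 saline libraries, and the inputs lie lowest for Pde5a and highest for Pde1a.

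The escalating group had 2 libraries, so its comparisons lean on the spread of the other groups. Against saline no member passed (0 of 39, all genes 0%, edgeR), and 3 of 39 had an unadjusted p under 0.05 against 8.09% of all genes. DESeq2 called 1 member there, and 143 of all genes. Against nonescalating cocaine no member passed (0 of 39, all genes 0%), and 3 of 39 had an unadjusted p under 0.05 against 8.75% of all genes. In that comparison DESeq2 called 2 members, and 225 of all genes. These comparisons share the escalating libraries. Adcy7 had 3 and 0 counts in the escalating libraries, against 80, 0 and 115 in saline and 241, 95, 0, 85 and 21 in nonescalating libraries. A library without any count thus occurred in each of the 3 groups. Over the summed counts the ratio to nonescalating was 0.00540 (95% exact interval for counting error only, 0.00111 to 0.0159) and to saline 0.0109 (0.00222 to 0.0322). The edgeR adjusted p was 0.558 against nonescalating and 0.614 against saline, while DESeq2 gave 0.00347 and 0.0148. Adcy7 correlated with the pericyte and smooth muscle sum as given above, and escalating replicate 1, with 3 counts of Adcy7, had the second highest of the 24 sums at 4246 CPM.

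Adcy2 was at 3.57 and 2.505 CPM in the escalating libraries, below all 3 saline libraries (13.7 to 21.5) and all 5 nonescalating libraries (4.35 to 40.6). Such a separation, in the lower direction, held for 6.55% and 4.07% of all genes, and the members with it were Adcy2 against saline and Adcy2, Pde3a and Pde6d against nonescalating. The log2 fold change of Adcy2 was -2.61 (SE 1.11, edgeR adjusted p = 0.614) against saline and -2.89 (SE 1.09, edgeR adjusted p = 0.558) against nonescalating, where DESeq2 gave an adjusted p of 0.0398. In the higher direction Adcy9, Pde1c, Pde3b and Prkacb were separated from saline (7.66% of all genes), and Prkacb from nonescalating (5% of all genes). Prkacb, the second catalytic subunit of PKA, was at 710.1 and 689.5 CPM in escalating libraries against at most 679 in saline and 653 in nonescalating ones. Pde1c, a calcium and calmodulin dependent PDE, was at 189.9 and 147 CPM against 84.7, 31.9, 156, 24.4 and 31.8 in nonescalating libraries, with overlap (log2 fold change 1.37, SE 0.58, edgeR adjusted p = 0.558). Pde3b, at 3.77 and 5.01 CPM, was above all saline libraries (log2 fold change 3.80, SE 1.67, edgeR adjusted p = 0.614). The PKA subunits, 5 of 6 above 0 against nonescalating (median 0.26), were 2 of 6 above 0 against saline.

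Withdrawal was compared with no withdrawal within each agent. These contrasts carry the library set term, which is estimated from the withdrawal groups alone because the other groups lie in set 1. In saline animals no member passed (0 of 39; all genes 0%, edgeR) and 2 of 39 had an unadjusted p under 0.05, against 6.64% of all genes. Pde3b, at 21.6, 28.5 and 7.24 CPM in set 1 and 4.28, 29.0 and 3.08 in set 2 after withdrawal, was above all 3 saline libraries, a separation found in 1.21% of all genes (1.1% in the lower direction, with 0 members). The log2 fold change was 5.40 (SE 1.65, edgeR adjusted p = 0.742), resting on 1, 1 and 2 counts in saline, and DESeq2 gave an adjusted p of 0.0353. The inputs, at 10.2 and 9.71 CPM, were also far above those saline libraries. Prkar2a was at 232, 167 and 108 CPM in saline and ran from 65.4 to 139 after withdrawal (log2 fold change -0.98, SE 0.45, edgeR adjusted p = 0.743). Pde5a was at 30.3 to 99.2 CPM in saline and 5.82 to 39.9 after withdrawal, with overlap (log2 fold change -1.46, SE 0.77, edgeR adjusted p = 0.770). Over the same groups the pericyte and smooth muscle sum had medians of 2832 and 842 CPM, without adjustment for library set. After withdrawal the sums were 3609, 1072 and 1717 CPM in set 1 and 124, 612 and 196 in set 2. The saline libraries without withdrawal, all of set 1, had 4845, 814 and 2832. The part of this sum in the Pde5a values was not tested.

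In nonescalating cocaine animals no member passed either (0 of 39; all genes 0%, edgeR), no member separated the groups (all genes 0.0631% higher and 0.0568% lower), and 1 of 39 had an unadjusted p under 0.05, against 2.78% of all genes. That member was Pde8a, a cAMP-specific PDE of high affinity, at 11.4, 171, 4.51, 122 and 52.3 CPM without withdrawal and from 2.39 to 40.0 (median 10.6) after it. The groups overlapped, with 2 of 8 withdrawal libraries below every library without withdrawal (log2 fold change -1.81, SE 0.77, edgeR adjusted p = 1), and the value was -1.20 without nonescalating replicate 2, the library at 171. Prkg2 had a log2 fold change of 2.16 (SE 1.07) and the cAMP-specific Pde4a of -0.45 (SE 0.32), both with an edgeR adjusted p of 1. Prkg2 rested on the 1 to 7 counts per nonescalating library given above.

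**Figure D5:**
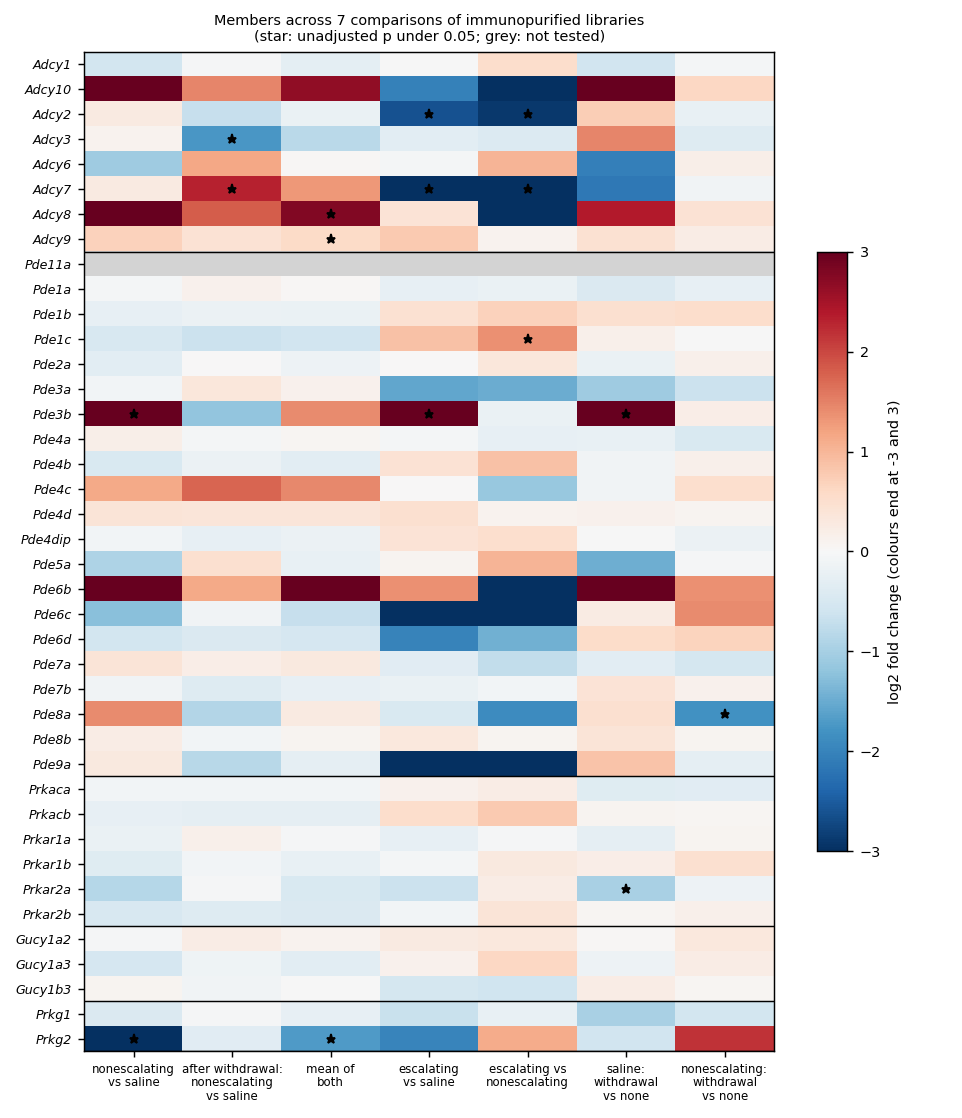
Log2 fold change of the 40 members (rows, grouped by family) in 7 comparisons among immunopurified libraries (columns), with colours that end at -3 and 3, stars for an unadjusted p under 0.05 and grey for the untested Pde11a. PKA subunits stay pale throughout, the strongest colours belong to members of low level such as Adcy7, Adcy10, Pde6b and Pde3b, and no member passed the adjusted threshold.

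Other genes that act on the same messengers were taken from 8 lists of 82 genes, covering G protein subunits and receptors that raise or lower cAMP, A-kinase anchoring proteins, kinase inhibitors and phosphatase regulators, the CREB family, other cAMP effectors, other cGMP genes and the 3 excluded enzymes. Among immunopurified libraries 69 were tested and 0 passed in any of the 8 comparisons (edgeR), with 1 to 7 at an unadjusted p under 0.05 (1.45% to 10.1% of the 69, against 2.78% to 8.75% of all genes in these comparisons). Against input 67 were tested, Adcy4 alone passed, higher, and 12 had an unadjusted p under 0.05 (17.9%, against 8.27% of all genes). Drd1, the dopamine receptor that raises cAMP in the other class of medium spiny neurons, was the list gene with the smallest p among those that raise cAMP (log2 fold change -2.08, SE 0.56, edgeR adjusted p = 0.128). Drd2 was that of the genes that lower it (2.46, SE 0.71, edgeR adjusted p = 0.171). Nos3, the endothelial synthase of the nitric oxide that activates guanylyl cyclase, led the other cGMP genes (2.97, SE 0.89, edgeR adjusted p = 0.200). Crtc2, a CREB coactivator, had the smallest p of the CREB family (edgeR adjusted p = 0.510), Hcn4 of the other cAMP effectors (0.537), Akap9 of the anchoring proteins (0.643) and Pkia of the kinase inhibitors and phosphatase regulators (0.816). Pde10a and Adcy5 were close to input, at 0.19 (SE 0.59) and 0.18 (SE 0.53).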

How the data were processed

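RNA from 24 immunopurified and 2 input libraries was sequenced. For each library the authors deposited a table of raw read counts per gene symbol, with no normalization. The tools named per the submitters' processing notes are HTSeq and STAR 2.0.0e, and the build is mm10; HTSeq's version, the annotation and the use of strand: not given in the sources used here. The 31735 genes listed in all files were used, and rows naming no gene were left out: between 13.7% and 48.6% of each immunopurified library's records were gene counts. Counting error limits precision at low levels, and intervals cover it alone.

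Groups come from the sample titles. The main test was the quasi-likelihood test of edgeR 4.0.16 (R 4.3.3) after TMM scaling and filterByExpr (minimum count 10), adjusted after Benjamini-Hochberg with a threshold of 0.05. A single fit with terms for group and library set held all 24 immunopurified libraries, and input had a fit of its own with agent as a term. Each standard error is the log2 fold change's size divided by the root of F. Exon lengths are the union of GENCODE M21 exons (GRCm38). Alternatives were DESeq2 1.42.0, limma 3.58.1 voom, other scaling and filters, other sample choices, a replicate block and leaving out each library. The test was tested on simulated data. In 57 pairs within groups the chi-square per gene was 19.0 or more, so no library was counted as a repeat of another.

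Members and gene lists were chosen with earlier results of these data known. Named are, for each comparison among immunopurified libraries, the 3 members with the smallest p, against input the 5 in each direction, in each family the 2 members with the highest mean CPM, and in each pathway list the gene with the smallest p. The marker correlations and their shares over all genes, the promoter search, and Pde1b, Prkacb, Prkar1a and Gucy1b3 against input were added after the values were seen. Exons of 12 of 40 members overlap another gene, 2 of them a protein-coding gene (Adcy3 and Pde2a), and reads there cannot be told apart. No promoter window was at hand for Adcy6, Adcy8, Pde3a, Pde3b, Pde6c, Pde7a, Pde9a and Prkg2.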

Additional observations from a re-analysis of the deposited data

Results flagged for a closer look

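In 15 of 120 pairs of a member and a group of 4 to 10 libraries, 1 library lay so far from the others that its gap to the nearest, divided by the range, passed Dixon's limit. Chance gives about 1 in 20 for normally distributed values. Where all other libraries are at 0, any count gives a ratio of 1, and several of the 15 pairs share a library. The 15 pairs can therefore not be set against that rate. Nonescalating replicate 4, the library with little Drd2, was lowest for Gucy1a3 (157 CPM, others 594 to 785, ratio 0.826) and Pde2a (272 CPM, others 565 to 716, ratio 0.755), and highest for Pde6b (4.50 CPM, ratio 0.767). In that group replicate 1 was lowest for Adcy8 (0 CPM, others 6.53 to 12.9, ratio 0.767) and replicate 3 for Pde4c (0.322 CPM, others 16.6 to 33.4, ratio 0.795).

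In saline withdrawal, replicate 1 of set 1 was lowest for Prkacb (261 CPM, others 645 to 827, ratio 0.785), Pde7b (173 CPM, ratio 0.726), Gucy1a3 (393 CPM, others 765 to 1105, ratio 0.643) and Adcy1 (74.5 CPM, ratio 0.641). The same library was highest for Adcy10 (15.9 CPM, ratio 0.886) and for Pde6b (3.36 CPM, all others at 0, ratio 1). Its pericyte and smooth muscle sum of 3609 CPM was the highest and its medium spiny neuron sum of 3683 CPM the lowest of the group. Replicate 3 of set 2 alone had counts of Pde6c (16.1 CPM, ratio 1).

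In cocaine withdrawal, replicate 4 of set 2 was lowest for Adcy9 (92.7 CPM, others 165 to 218, ratio 0.678), replicate 3 of set 2 was highest for Prkg1 (100.4 CPM, others 33.1 to 54.6, ratio 0.551), and replicate 1 of set 1 was highest for Pde6b (7.74 CPM, ratio 0.731).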

How the results depend on the processing

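The count of members called was 0 in the fits reported and in 180 of 191 combinations of a comparison with an alternative setting. Many of these combinations share a fit, and most libraries are common to them. The exceptions were DESeq2, with 2 members for escalating against nonescalating (Adcy2, Adcy7), 1 for escalating against saline (Adcy7), 1 for saline withdrawal against saline (Pde3b) and 3 against input (Adcy6, Pde1a, Pde5a). Against input, limma voom gave 7, the 16 immunopurified libraries of set 1 gave 1 (Pde1a), all 24 gave 2 (Pde1a, Pde5a), no low count filter gave 1 (Pde5a), and leaving out single libraries gave 0 to 1. The replicate block gave 2 (Adcy6, Pde5a) against input. Deviations of same-numbered libraries correlated at -0.14 to 0.28 (16 pairs, median 0.07, 5 over 0.1). For libraries of other numbers the median was -0.002 (63 pairs, 15 over 0.1). The deviations are from means of 2 to 5 libraries, so these values cannot decide whether the numbers pair libraries, and the labels do not say. The genes called against input moved from 38 to 757 with DESeq2, 1090 with voom, 321 with the replicate block, 150, 120, 132 and 70 with set 1, all libraries, no filter and the stricter filter, and 1 to 252 without single libraries. DESeq2 called 225 genes for escalating against nonescalating (voom 8), 143 for escalating and 34 for nonescalating against saline, 30 for saline withdrawal against saline, 20 for the mean cocaine effect, 11 for the difference and 2 after withdrawal, where edgeR called 0. Of 706 values of named members, 685 kept direction and side of the threshold, 20 passed, and Pde3b turned to -1.91 with the nonescalating libraries taken as withdrawal. That setting also changed the reference for Pde3b from saline (0.214, 0.118 and 0.613 CPM) to saline withdrawal of set 1 (21.6, 28.5 and 7.24 CPM). It is thus another comparison and not the same one processed differently. The members' median turned from -0.09 to 0.21 (nonescalating against saline) and from -0.06 to 0.21 (escalating against saline) without saline replicate 3, and 6 other medians moved by more than the spread between libraries. Median-of-ratios scaling moved the median of all genes by -0.13 for escalating against nonescalating and by less than 0.1 elsewhere. Depth limits members at a few CPM, where 3 counts are up to 1.95 CPM.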
